A study of Mus musculus with 6 samples.

Results

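Transcripts of the adult haemoglobin genes Hba-a1, Hba-a2, Hbb-bs and Hbb-bt and of the erythroid gene Alas2 were examined in bulk RNA sequencing of the PFC (prefrontal cortex), with P301S Tau and wild-type (WT) animals compared. These 5 genes were taken by symbol from the deposited count table of each library, out of 54429 genes. All 5 had counts in each of the 6 libraries and passed the filter on low counts, which kept 20409 genes. RNA had been sequenced in 2 libraries per group. The WT + vehicle group were mice labelled C57BL/6 x C3H that received vehicle, saline with a little DMSO. The Tau + vehicle group were PS19(P301S) mice that received the same vehicle, and the Tau + UNC0642 group were PS19(P301S) mice that received UNC0642, an inhibitor of the histone methyltransferases EHMT1 and EHMT2, at 1 mg/kg by daily injection on 3 days. All mice were about 6 months old, and in the study WT and Tau mice were littermates of either sex. The PS19 transgene carries mutant human tau behind the mouse prion promoter, and the line is kept on a mixed C57BL/6 and C3H background.

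Haemoglobin, the oxygen carrier of red blood cells, is built of alpha chains, encoded in the adult mouse by Hba-a1 and Hba-a2, and beta chains, encoded by Hbb-bs and Hbb-bt. Alas2 makes the erythroid form of the enzyme that starts haem synthesis, while Alas1 serves that step in other cells. Globin messenger RNA persists in young circulating red cells, so tissue that holds blood contains it, and globin transcripts have also been described in neurons and glia. The beta genes differ between mouse strains: C57BL/6 carries the haplotype called single, with Hbb-bs and Hbb-bt, and C3H the haplotype called diffuse, with Hbb-b1 and Hbb-b2. The deposited counts had no rows for Hbb-b1 and Hbb-b2. Blood was not removed by any step that the study describes for the tissue used in sequencing.

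In the mm10 genome (GRCm38, GENCODE M21), Hba-a1 lies on the plus strand at chr11:32283511-32284465 and Hba-a2 on the same strand at chr11:32296489-32297298. Hbb-bs lies on the minus strand at chr7:103826534-103828096, Hbb-bt on the minus strand at chr7:103812524-103813996, and Alas2 on the plus strand at chrX:150547375-150570638. The genes of each pair are almost alike, and this bears on how reads were assigned. The coding sequences of Hba-a1 and Hba-a2, 429 bases each, were 99.8% identical and differed by C381T, with positions counted from 1 at the A of the start codon and the base of Hba-a1 given first. Those of Hbb-bs and Hbb-bt, 444 bases each, were also 99.8% identical and differed by C417T, with the base of Hbb-bs first. Both substitutions fell on base 3 of a codon in exon 3, codon 127 in the alpha pair and codon 139 in the beta pair. The stretches below show the coding bases around them, 41 bases from the 5′ end, with the differing base in capitals. They stand at chr11:32284323-32284363 and chr11:32297140-32297180 on the plus strand and at chr7:103826672-103826712 and chr7:103812663-103812703 on the minus strand.
Hba-a1: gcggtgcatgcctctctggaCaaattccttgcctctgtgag
Hba-a2: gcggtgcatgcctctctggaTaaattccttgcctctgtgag
Hbb-bs: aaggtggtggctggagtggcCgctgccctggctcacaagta
Hbb-bt: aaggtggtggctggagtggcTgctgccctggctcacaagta

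Of all windows of 50 bases in the transcript, 32.5% of those of Hba-a1 and 13.1% of those of Hba-a2 occurred in transcripts of no other gene. The shares were 34.2% for Hbb-bs and 41.7% for Hbb-bt. In Alas2, 86.2% of the windows were its own, and the others were shared with Apex2, which overlaps it, and Mir3620. Within the coding sequence only 12.9% of the windows of each alpha gene and 7.09% of those of each beta gene told the copies apart. The split of counts within a pair is therefore uncertain, and sums of each pair are given beside the single genes. How reads that match both copies were counted is not given in the sources used here.

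**Figure D1:**
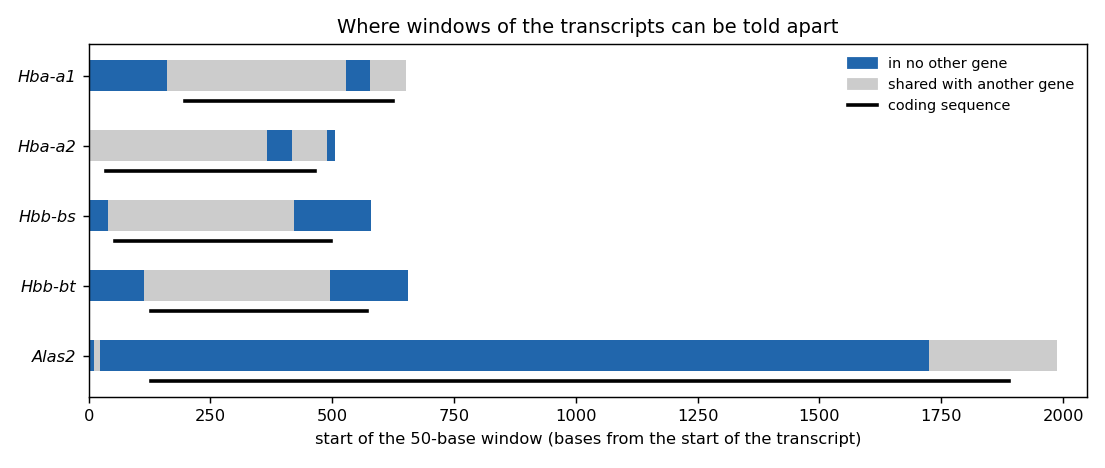
Each bar runs along 1 transcript from its start, in bases, and blue marks the starts of 50-base windows found in no other gene, grey those shared with another gene, with the coding sequence as a black line. Blue covers 13.1% of Hba-a2 and 86.2% of Alas2.

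The promoters of the 4 haemoglobin genes shared short boxes that globin promoters are already known to hold. Their presence here is therefore no independent result. Promoters were taken from RefSeq (GRCm38.p6), where all 5 genes matched, and the 120 bases before the start of each were searched on both strands for the letters of 4 boxes known from promoters of globin genes. CACCC, the box of the Klf family, occurred in 5 of the 5 windows and in 31.3% of 27025 promoter windows of the same length. CCAAT, the box of NF-Y, occurred in 4 of the 5 against 22.1%. A TATA box, written ATATAA, occurred in 4 of the 5 against 4.68%. GATAA, the box of the GATA factors, occurred in 1 of the 5, that of Alas2, against 10.7%. No match overlapped another in the 5 windows. The windows of Hba-a1 and Hba-a2 were 95.1% identical when aligned, and those of Hbb-bs and Hbb-bt 72.7%, so the genes of a pair do not count independently. The 30 bases from 40 to 11 before the start are shown, with matches to these letters on either strand in capitals, because they hold the ATATAA match of each haemoglobin gene. They stand at chr11:32283632-32283661, chr11:32296452-32296481, chr7:103827939-103827968, chr7:103813934-103813963 and chrX:150547377-150547406, on the strand of the gene. In some transcripts of GENCODE M21 these bases are already transcribed.
Hba-a1: cccttggagggcATATAAgtgctacttgct
Hba-a2: ttggagggcATATAAgtgctacttgctgca
Hbb-bs: agggcagagcATATAAggtgaggtaggatc
Hbb-bt: cagcATTGGgtATATAAagctgagcagggt
Alas2: GGGTGGGGTGGGGTGggcggggctgagcag
ATATAA began 28 to 31 bases before the start in the 4 haemoglobin genes. Alas2 had 3 CACCC matches there instead, all on the opposite strand.

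Library totals ranged from 17005664 to 28972176 counts, so a floor of 3 counts was 0.104 to 0.176 CPM (counts scaled to library size). Prnp, whose promoter drives the transgene, stood at 1652 CPM in the library labelled WT replicate 1, at 873 in WT replicate 2 and at 1470 to 1694 in the 4 Tau libraries. Mapt, the mouse tau gene, stood at 576, 449 and 571 to 614 CPM in the same order. In both checks the library labelled WT replicate 1 thus went against its label. Comparisons with WT were therefore repeated without it, with the lone WT library assumed to vary like the other groups. In those fits, over 21378 genes, 4.64% of genes were called lower and 4.38% higher in Tau + vehicle, and 4.76% lower and 4.27% higher in Tau + UNC0642. Xist was at 191 to 317 CPM in WT replicate 2 and both Tau + vehicle libraries, and at 0.118 to 0.197 CPM in the library labelled WT replicate 1 and both Tau + UNC0642 libraries, where the Y-linked Ddx3y was at 95.1 to 101 CPM. Sex and treatment thus cannot be told apart between Tau + UNC0642 and Tau + vehicle. Markers of cortical neurons summed to 1640 to 1913 CPM in all libraries. Tau replicate 2 stood apart in oligodendrocyte markers, at 5407 CPM against 1426 to 2901 in the others, and in striatal markers, at 221 CPM against 82.8 to 102.

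Hbb-bs had the highest counts of the 5 genes on a scale per length of exon. The lengths include stretches shared within a pair. If reads that match both copies were left out, the levels of the haemoglobin genes are too low, by unlike amounts. The order of the genes on this scale is uncertain to that extent. In CPM per kilobase of exon it averaged 42.0 over the 6 libraries, against 8.64 for Hba-a1, 7.41 for Hbb-bt, 4.16 for Hba-a2 and 1.87 for Alas2. Hbb-bs, at 30.3 to 52.4 on this scale, was above the other genes in every library. Hba-a1 (5.01 to 19.0) and Hbb-bt (4.88 to 9.72) overlapped each other, and Hba-a2 (0.132 to 7.495) overlapped both, so their order is not beyond the spread between libraries. Alas2 (1.37 to 2.58) lay below Hba-a2 in every library except Tau + UNC0642 replicate 2. The sum of the 4 haemoglobin genes was 54.5 CPM in the library labelled WT replicate 1 and 58.4 CPM in WT replicate 2. It was 36.4 and 34.8 CPM in Tau + vehicle replicates 1 and 2. In Tau + UNC0642 it was 37.7 CPM in replicate 1 and 61.5 CPM in replicate 2. The summed level was thus low in both Tau + vehicle libraries, high in both libraries labelled WT + vehicle, and at either end in the 2 Tau + UNC0642 libraries.

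**Figure D2:**
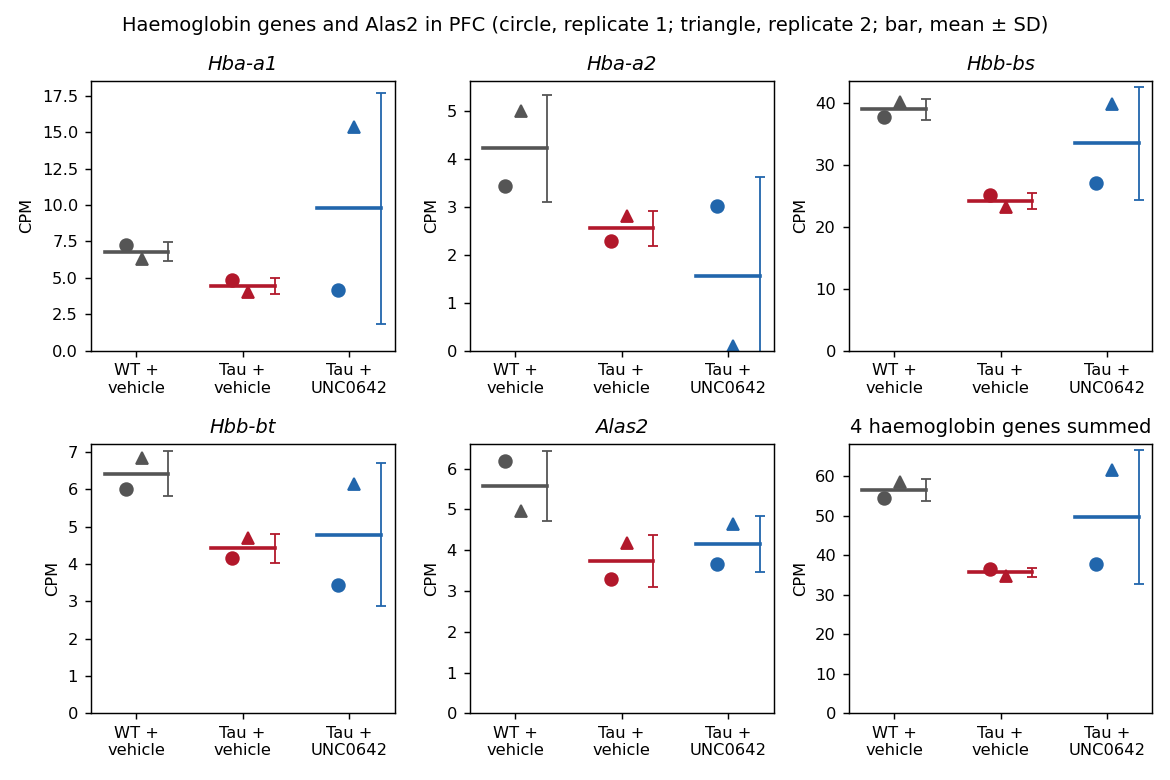
The vertical axes give CPM in each library for the 5 genes and for the 4 haemoglobin genes summed (circles replicate 1, triangles replicate 2), with the mean as a horizontal line and the SD of 2 libraries as an error bar, which is cut at 0 for Hba-a2. Both Tau + vehicle points lie below both WT + vehicle points in every panel, and the Tau + UNC0642 points are spread, at 37.7 and 61.5 CPM in the sum.

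Compared with WT + vehicle, Tau + vehicle had lower counts of the 5 genes, and for each of them both Tau libraries lay below both WT libraries. Such separation downward occurred in 21.4% of all genes tested. Genes were called when edgeR's unadjusted p-value was below 0.05 and the fold change 1.2 or more, and 2 of the 5 genes, Hbb-bs and Alas2, were called lower, against 6.1% of all genes tested. Of all genes, 3.72% were called higher. After adjustment by Benjamini and Hochberg none of the 5 stayed below 0.05 with edgeR, a mark reached by 0.157% of genes. Their median log2 fold change was -0.60 and that of all genes -0.00011. In bulk tissue, fewer cells of a type and less RNA per cell cannot be told apart.

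Hbb-bs, the adult beta gene of the higher level, had 37.8 CPM in the library labelled WT replicate 1 and 40.2 in the other WT library, against 25.1 and 23.2 CPM in the Tau libraries. The Tau libraries were close to each other and well below the WT libraries. The log2 fold change was -0.69 ± 0.16 (SE, 2 libraries per group), with an adjusted p of 0.187 (edgeR, Benjamini-Hochberg). Without the library labelled WT replicate 1 it was -0.73 and still called, with an adjusted p of 0.284 (edgeR). DESeq2's Wald test gave Hbb-bs an adjusted p of 0.0145, and edgeR with no filter on low counts gave 1.6e-05. No other alternative brought it below 0.05: limma-voom gave 0.193 and edgeR with the 2 groups alone 0.116. The share of all genes below 0.05 in these fits is not given here.

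Hbb-bt, the other adult beta gene, had 5.99 and 6.84 CPM in the WT libraries and 4.15 and 4.69 CPM in the Tau libraries. The groups did not overlap, and the log2 fold change was -0.54 ± 0.27 (SE), with an adjusted p of 0.441 (edgeR), and it was not called. Without the library labelled WT replicate 1 it was -0.64, with an adjusted p of 0.521 (edgeR), and not called either. Alas2 had 6.19 CPM in the library labelled WT replicate 1, 4.96 CPM in WT replicate 2, and 3.29 and 4.18 CPM in the Tau libraries. Its log2 fold change was -0.59 ± 0.25 (SE), with an adjusted p of 0.383 (edgeR), and it was called. The highest of these values was that of the library labelled WT replicate 1, and without it the log2 fold change of Alas2 was -0.42 with an adjusted p of 0.635 (edgeR), and the call was lost.

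Of the alpha genes, Hba-a1 had 7.29 and 6.33 CPM in the WT libraries against 4.86 and 4.06 CPM in the Tau libraries. Hba-a2 had 3.43 and 4.999 CPM against 2.29 and 2.81 CPM. Both genes were separated by group, and neither was called, with log2 fold changes of -0.60 ± 0.45 (SE, adjusted p of 0.620, edgeR) and -0.74 ± 0.74 (SE, adjusted p of 0.716, edgeR). These standard errors include the spread between the Tau + UNC0642 libraries, since all 6 libraries shared 1 estimate of it. When the 2 groups were fitted alone, all 5 genes were called lower in Tau + vehicle, with log2 fold changes from -0.74 to -0.55. The share of all genes called in that fit is not given here. With Tau + UNC0642 replicate 1 or replicate 2 left out, the log2 fold change was -0.60 and -0.60 for Hba-a1, and -0.73 and -0.74 for Hba-a2. Without the library labelled WT replicate 1, 1 of the 5, Hbb-bs, was called, and the log2 fold changes were -0.50 for Hba-a1 and -0.99 for Hba-a2, with adjusted p of 0.785 and 0.710 (edgeR).

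Summed over the pair, the alpha genes had 11.02 ± 0.427 CPM (mean ± SD, n = 2) in WT + vehicle and 7.01 ± 0.198 CPM in Tau + vehicle. The beta genes had 45.4 ± 2.34 CPM and 28.6 ± 0.949 CPM. Both sums were thus lower in Tau + vehicle by a similar factor, to 0.636 of the WT + vehicle level in the alpha pair and to 0.630 in the beta pair. Set against WT replicate 2 alone, these ratios were 0.619 and 0.608. The summed log2 ratio of the 4 genes was -0.66, and it lay between -0.71 and -0.60 when single libraries were left out. Among the libraries with Xist expression alone, WT replicate 2 had 58.4 CPM and the Tau + vehicle libraries 36.4 and 34.8 CPM, so the difference was as large there, with 1 WT library. Per 100 haemoglobin counts there were 11.4 and 8.49 counts of Alas2 in the WT libraries, 9.03 and 12.0 in Tau + vehicle, and 9.75 and 7.53 in Tau + UNC0642, and the groups overlapped in this ratio.

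Compared with Tau + vehicle, Tau + UNC0642 had higher Hbb-bs and Hba-a1, and the other genes were not called. The 2 genes called higher out of 5 compare with 3.73% of all genes tested, while 3.95% of all genes were called lower, and 1 of the 5, Hbb-bs, lay above both Tau + vehicle libraries without overlap, against 20.4% of all genes. None of the 5 stayed below 0.05 after adjustment with edgeR, which 0.0196% of genes did. The Tau + vehicle libraries enter this comparison and the one before, and no overlap of calls was computed. The median log2 fold change of the 5 genes was 0.17, within a range from -0.79 to 1.14, and that of all genes was -0.0023.

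Hbb-bs had 27.1 CPM in Tau + UNC0642 replicate 1 and 39.9 CPM in replicate 2, the former just above both Tau + vehicle libraries and the latter between the WT libraries. Its log2 fold change was 0.47 ± 0.16 (SE), with an adjusted p of 0.461 (edgeR). Hba-a1 had 4.14 CPM in replicate 1, within the Tau + vehicle range, and 15.4 CPM in replicate 2, the highest of all 6 libraries. Its log2 fold change was 1.14 ± 0.45 (SE), with an adjusted p of 0.513 (edgeR).

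The other genes overlapped between these groups. Hbb-bt had 3.43 CPM in replicate 1 and 6.13 CPM in replicate 2, one below and the other above both Tau + vehicle libraries. Alas2 had 3.67 and 4.63 CPM. Hba-a2 had 3.02 CPM in replicate 1 and 0.0882 CPM in replicate 2, the latter being 2 counts. The log2 fold changes were 0.13 ± 0.28 for Hbb-bt, 0.17 ± 0.25 for Alas2 and -0.79 ± 0.82 for Hba-a2 (SE), and none of them was called.

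The calls rested on Tau + UNC0642 replicate 2. Without it, 0 of the 5 genes were called between Tau + UNC0642 and Tau + vehicle, and the log2 fold changes were 0.16 for Hbb-bs, -0.11 for Hba-a1, 0.25 for Hba-a2, -0.36 for Hbb-bt and -0.015 for Alas2. DESeq2's Wald test called 1 of the 5 genes, and edgeR with a term for sex-linked expression called 0. With limma-voom, 2 were called, but not the same ones: Hbb-bs was called higher and Hba-a2 lower, with a log2 fold change of -2.39 ± 0.97 (SE, adjusted p of 0.550), while Hba-a1 was not called (0.94 ± 0.51, SE, adjusted p of 0.636). Without Tau + vehicle replicate 2 none was called either, and Hbb-bs had a log2 fold change of 0.42 with an adjusted p of 0.588 (edgeR). Against the Tau + vehicle mean, the sum of the 4 haemoglobin genes differed by 0.080 on the log2 scale in replicate 1 and by 0.79 in replicate 2.

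**Figure D3:**
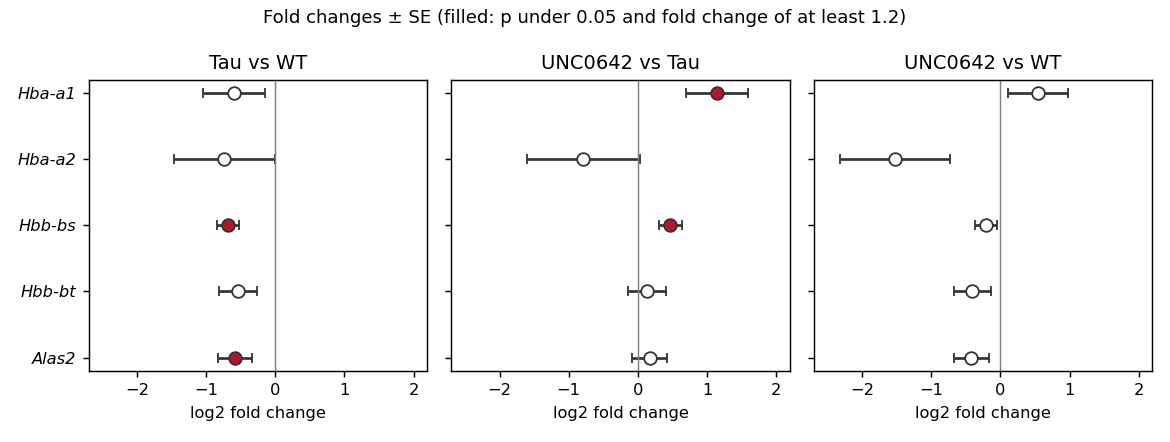
Points are log2 fold changes of the 5 genes from the fit to all 6 libraries with SE as bars, for Tau + vehicle against WT + vehicle, Tau + UNC0642 against Tau + vehicle and Tau + UNC0642 against WT + vehicle. Filled points were called. All 5 points lie between -0.74 and -0.54 at the left, and they scatter from -0.79 to 1.14 in the middle.

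Compared with WT + vehicle, Tau + UNC0642 had none of the 5 genes called, against 3.77% of all genes called higher and 5.69% called lower. The count below an unadjusted p of 0.05 was also 0 in edgeR's test, and 1 gene, Hba-a2, was called lower by limma-voom, and 2 genes were called with no filter on low counts. None stayed below 0.05 after adjustment with edgeR, which 0.216% of all genes did. Hba-a2 and Alas2 lay below both WT libraries, and such separation downward occurred in 22.3% of all genes. The log2 fold changes were -1.52 ± 0.79 for Hba-a2, -0.42 ± 0.25 for Alas2, -0.41 ± 0.27 for Hbb-bt, -0.21 ± 0.16 for Hbb-bs and 0.54 ± 0.43 for Hba-a1 (SE). In the haemoglobin sum, replicate 1 differed from the WT mean by -0.58 on the log2 scale and replicate 2 by 0.12. Each Tau + UNC0642 library was also set alone against WT, with its spread assumed to be that of the other groups. With replicate 1 alone, all 5 genes were lower, with log2 fold changes of -0.90 for Hbb-bt, -0.53 for Hbb-bs and -0.72 for Hba-a1 among them. With replicate 2 alone, the largest log2 fold changes were 1.18 for Hba-a1 and -5.50 for Hba-a2. Hba-a1 thus had opposite directions in the 2 libraries. Without the library labelled WT replicate 1, none of the 5 genes was called. Among the libraries with Ddx3y expression, the one labelled WT replicate 1 had 54.5 CPM in the haemoglobin sum and the Tau + UNC0642 libraries lay on either side of it.

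Hba-a2 was nearly absent from a single library. Its counts were 87 in the library labelled WT replicate 1, 128 in WT replicate 2, 64 and 49 in Tau + vehicle, 51 in Tau + UNC0642 replicate 1 and 2 in Tau + UNC0642 replicate 2. The counts of Hba-a1 in the same order were 185, 162, 136, 71, 70 and 349. The library with the fewest Hba-a2 counts was the one with the most Hba-a1 counts.

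As a share of the pair, Hba-a2 made up 32.0%, 44.1%, 32.0%, 40.8% and 42.1% of the counts in the first 5 libraries. In Tau + UNC0642 replicate 2 it made up 0.570%, 2 of 351 counts, with a 95% Wilson interval from 0.156% to 2.05%. The lowest lower bound among the other 5 libraries was 25.9%. Intervals cover counting error only, and they may be too narrow, because 63.8% to 67.1% of the counts from 1 to 20 were even numbers in these files. The share of Hba-a2 thus fell outside the range of the other libraries in a single mouse, and the other treated mouse, at 42.1%, lay within it.

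The alpha pair together was not low in that mouse. Its sum was 15.5 CPM there, against 7.16 CPM in Tau + UNC0642 replicate 1 and 10.7 to 11.3 CPM in the WT libraries. The alpha pair held 19.0% to 19.7% of all counts of the 4 haemoglobin genes in the first 5 libraries and 25.2% in Tau + UNC0642 replicate 2 (95% Wilson interval 23.0% to 27.5%). Its counts thus stood higher relative to the beta pair in this library than in any other, although the interval still met that of Tau + vehicle replicate 2, which ended at 23.1%.

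The beta pair showed no such split. Hbb-bt made up 13.7% and 14.5% of the beta counts in the WT libraries, 14.2% and 16.8% in the Tau + vehicle libraries, and 11.3% and 13.3% in the Tau + UNC0642 libraries. The intervals of these 6 shares overlapped, and the interval of Tau + UNC0642 replicate 2 ran from 11.4% to 15.5%. Reads of the diffuse haplotype could be assigned to either beta row, and which haplotypes the mice carried was not tested.

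**Figure D4:**
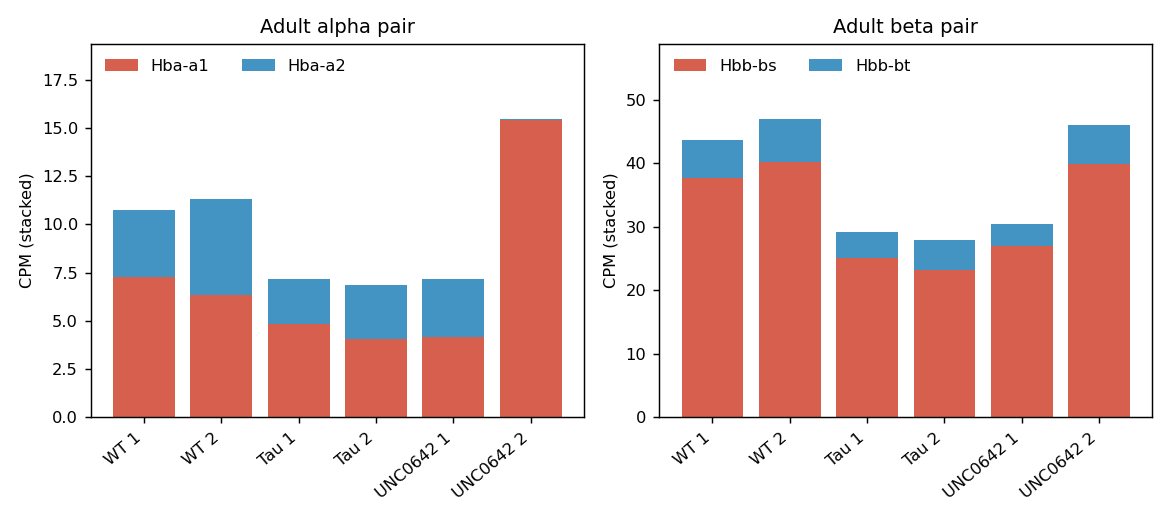
Stacked bars give CPM of Hba-a1 and Hba-a2 (left) and of Hbb-bs and Hbb-bt (right) in each of the 6 libraries, labelled by group (Tau, vehicle; UNC0642, treated Tau) and replicate. Hba-a2 is visible in 5 libraries and is 0.0882 CPM in Tau + UNC0642 replicate 2, where Hba-a1 reaches 15.4 CPM, while the beta pair keeps similar proportions throughout.

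Genes near the alpha genes on chromosome 11 did not follow this split. Snrnp25, Nprl3, Mpg, Rhbdf1, Sh3pxd2b and Ubtd2, within 200000 bases of Hba-a1, differed by 1.21-fold to 2.04-fold between their highest and lowest library. Hbq1a, a theta globin gene of the same cluster that is little expressed, had 6, 14, 4, 1, 6 and 24 counts in the 6 libraries, so its highest count was also in Tau + UNC0642 replicate 2. Its log2 fold change between Tau + UNC0642 and Tau + vehicle was 2.69 ± 0.88 (SE), with an adjusted p of 0.444 (edgeR), at 4 and 1 counts in Tau + vehicle. A search over all genes, chosen after the Hba-a2 values were seen, looked for genes at 1 CPM or more in 5 libraries and at least 8-fold lower in the sixth. It found 6 such genes in Tau + UNC0642 replicate 2, Hba-a2 among them, out of 15118 genes, and 0 to 2 in each of the other libraries.

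Other genes of the red cell lineage were close to absent or, with 1 exception, not called. Of 26 further erythroid genes, 25 had values and 10 passed the filter. Several that mark red cell membranes and precursors had few counts in every library: Slc4a1 (the band 3 anion exchanger) had 0 to 18, Epb42 0 to 2, and the transcription factors Gata1 0 to 2 and Klf1 2 to 8. Rhag, Tspo2 and Icam4 had 0 counts in all 6 libraries. Between Tau + vehicle and WT + vehicle, 0 of the 10 tested genes were called, against 3.72% of all genes higher and 6.1% lower. A list of 10 genes is too short to read this count as a trait of the list. The median log2 fold change of the 10 was -0.025. Both Tau + vehicle libraries lay below both WT libraries in 2 of the 10, against 21.4% of all genes, and above them in 1. The tested genes of highest level were Tfrc, Sptb, Tmcc2, Fech, Bpgm and Ank1, which other cells express too, and of these Ank1 alone was called, lower in Tau + UNC0642 than in Tau + vehicle (log2 fold change -0.30 ± 0.10, SE, adjusted p of 0.461, edgeR) and than in WT + vehicle (-0.26 ± 0.10, SE, adjusted p of 0.347, edgeR). No other gene of the list was called in any of the 3 comparisons. The shares of all genes called lower in Tau + UNC0642 were 3.95% against Tau + vehicle and 5.69% against WT + vehicle. Without the library labelled WT replicate 1, 12 genes of the list were tested, 0 were called in Tau + vehicle and 1 in Tau + UNC0642 against WT, again Ank1 (log2 fold change -0.34).

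The embryonic globin genes were not detected or nearly so. Hbb-bh0, Hbb-bh1, Hbb-bh2, Hbb-bh3 and the pseudogene Hba-ps3 had 0 counts in all 6 libraries, and Hbb-y and Hba-x had at most 2 counts in any of them. Cygb (cytoglobin) and Ngb (neuroglobin), globins of non-erythroid cells, were expressed without a call in any comparison. Cygb was at 29.9 and 27.3 CPM in WT + vehicle, 29.6 and 30.5 CPM in Tau + vehicle, and 34.0 and 31.2 CPM in Tau + UNC0642. Ngb lay between 2.38 and 3.43 CPM. The log2 fold change between Tau + vehicle and WT + vehicle was 0.071 ± 0.11 for Cygb, whose groups overlapped, and 0.43 ± 0.28 for Ngb (SE).

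None of the other enzymes of haem synthesis was called lower in Tau + vehicle, and the call of Alas2 itself was lost without the library labelled WT replicate 1. Of 8 enzymes, 1 was called higher and 0 lower in Tau + vehicle than in WT + vehicle, against 3.72% and 6.1% of all genes tested. In Tau + UNC0642, 2 were called lower than in Tau + vehicle, against 3.95%. A list of 8 genes is too short to read these counts as a trait of the list. Between Tau + UNC0642 and WT + vehicle, 1 enzyme was called, lower, against 5.69% of all genes. It was Ppox, which catalyses the step before the last (log2 fold change -0.37 ± 0.16, SE, adjusted p of 0.397, edgeR). Without the library labelled WT replicate 1, Ppox was not called (-0.24). In the first comparison their median log2 fold change was -0.012. The gene called in both comparisons was Alad, the enzyme of the step after Alas1 and Alas2, with 31.5 and 28.5 CPM in WT + vehicle, 43.3 and 46.9 CPM in Tau + vehicle, and 30.0 and 30.3 CPM in Tau + UNC0642. Its log2 fold change was 0.59 ± 0.10 (SE) between Tau + vehicle and WT + vehicle, with an adjusted p of 0.0760 (edgeR), or 0.66 without the library labelled WT replicate 1, still called, and -0.58 ± 0.10 (SE) between Tau + UNC0642 and Tau + vehicle, with an adjusted p of 0.144. Alas1, the form of other cells, had 65.3 and 59.3 CPM in WT + vehicle and 66.0 and 60.2 CPM in Tau + vehicle, a log2 fold change of 0.020 ± 0.091 (SE). Among 10 tested genes of haem and iron handling, 0 were called between Tau + vehicle and WT + vehicle, against 3.72% of all genes higher and 6.1% lower. In Tau + UNC0642, 1 was called lower than in Tau + vehicle and 1 lower than in WT + vehicle, against 3.95% and 5.69%. These counts are likewise too small to read as a trait of the list.

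Of the markers of brain endothelium, most were lower in Tau + vehicle than in WT + vehicle, and several were also low in Tau + UNC0642. All 12 were tested, and 6 were called lower and 1 higher in Tau + vehicle than in WT + vehicle, against 6.1% and 3.72% of all genes tested, with a median log2 fold change of -0.33. The counts were 4 and 1 without the library labelled WT replicate 1. In Tau + UNC0642, 1 was called higher than in Tau + vehicle and 0 lower, against 3.73% and 3.95%. Compared with WT + vehicle, 5 were called lower and 1 higher in Tau + UNC0642, against 5.69% and 3.77%, a comparison in which none of the haemoglobin genes was called, and without the library labelled WT replicate 1 the counts were 3 and 0. The summed level was 318 and 312 CPM in the WT libraries, 260 and 274 CPM in the Tau + vehicle libraries, and 241 and 315 CPM in Tau + UNC0642 replicates 1 and 2. It was thus split between the Tau + UNC0642 libraries in the same direction as haemoglobin, whose sum was 37.7 and 61.5 CPM.

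Single markers differed in how far they followed the sum. Flt1, a receptor for vascular growth factors, had 47.5 and 46.6 CPM in the WT libraries, 38.0 and 35.7 CPM in Tau + vehicle, and 38.7 and 47.5 CPM in Tau + UNC0642. Slco1a4, a transporter of the blood-brain barrier, had 62.0 and 62.5 CPM, then 41.7 and 48.0 CPM, then 39.2 and 53.8 CPM. Kdr, another receptor for vascular growth factors, had 13.9 and 16.6 CPM, then 9.65 and 8.02 CPM, then 7.70 and 9.84 CPM. Slco1a4, Kdr, Cldn5, Tek and Itm2a were thus called lower in Tau + UNC0642 than in WT + vehicle, and each stayed below both WT libraries in Tau + UNC0642 replicate 2, the library with the highest haemoglobin sum. Slc2a1, the glucose transporter, and Ly6a went the other way, with both Tau + vehicle libraries above both WT libraries. Slc2a1 was called higher in Tau + vehicle (log2 fold change 0.44 ± 0.12, SE, adjusted p of 0.259, edgeR). Ly6a had 3.51 and 3.55 CPM in the WT libraries and 5.43 and 6.87 CPM in Tau + vehicle, and was not called (0.79 ± 0.44, SE, adjusted p of 0.494, edgeR). The part of vessel content in the haemoglobin levels was not tested.

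Markers of other blood cells were low, apart from Ighm, the heavy chain of immunoglobulin M. Of 14 neutrophil and platelet markers 3 were tested, their sum was 3.43 to 7.11 CPM, the highest being in Tau + vehicle replicate 1, and Mpo and Elane had 0 counts in all libraries. Of 9 lymphocyte markers, Ighm alone was tested. It had 7.65 and 17.5 CPM in the WT libraries, 44.9 and 55.4 CPM in Tau + vehicle, above the haemoglobin sum there, and 7.10 and 12.7 CPM in Tau + UNC0642. Ighm was called higher in Tau + vehicle than in WT + vehicle (log2 fold change 1.99 ± 0.33, SE, adjusted p of 0.0577, edgeR) and lower in Tau + UNC0642 than in Tau + vehicle (-2.32 ± 0.34, SE, adjusted p of 0.0927, edgeR). The former was 1.51 and still called without the library labelled WT replicate 1. The sum of the list was 7.34 to 18.1 CPM in the WT and Tau + UNC0642 libraries and 45.05 and 56.0 CPM in the Tau + vehicle libraries, where haemoglobin was lowest. The 6 choroid plexus markers summed to 3.47 and 3.44 CPM in the WT libraries, 5.18 and 5.95 CPM in Tau + vehicle, and 3.49 and 5.73 CPM in Tau + UNC0642. The part of these cells in the haemoglobin levels was not tested.

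**Figure D5:**
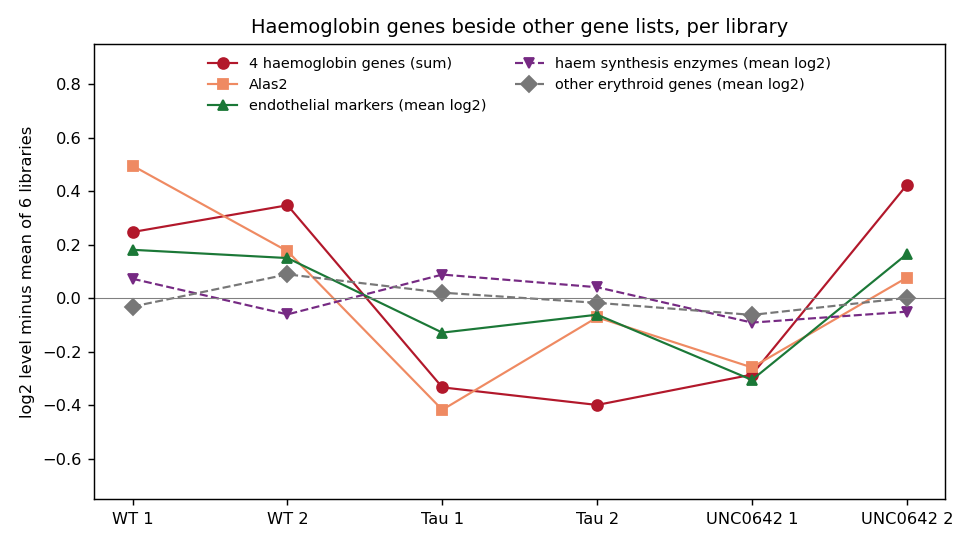
Lines give, for each of the 6 libraries (Tau, vehicle; UNC0642, treated Tau), the log2 level minus its mean over the libraries, for the sum of the 4 haemoglobin genes, Alas2, and the mean log2 level of 3 gene lists. Haemoglobin, Alas2 and the endothelial markers are above their means in both WT libraries and in Tau + UNC0642 replicate 2, while the lines of the haem synthesis enzymes and other erythroid genes vary less.

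Over the 6 libraries, the profile of Alas2 was nearer to that of summed haemoglobin than a flat line was. The root mean square difference of centred log2 CPM was 0.228 for Alas2 and 0.341 for a flat profile, and 4461 of 16373 genes with a mean of at least 1 CPM were nearer than the flat profile. The 8 nearest genes were Gm47603, Gm26866, Gm16973, Gm16008, Gm42551, B3gntl1, Cd93 and Gm26724, at differences from 0.0751 to 0.106. B3gntl1 had 8.12 and 7.85 CPM in the WT libraries, 4.83 and 4.92 CPM in Tau + vehicle, and 5.21 and 7.37 CPM in Tau + UNC0642. Cd93, a surface receptor of endothelial and myeloid cells, had 9.19 and 8.48 CPM, then 5.08 and 5.15 CPM, then 6.51 and 9.40 CPM. Of the 12 listed endothelial markers, 9 were nearer than the flat profile, from Cdh5 (VE-cadherin) at rank 38 to Cldn5 at rank 1233 of the 16373 genes. The other 3 were farther, Itm2a at rank 9297, Slc2a1 at rank 13681 and Ly6a at rank 16165. Each profile has 6 points, from libraries that differed in depth and in oligodendrocyte and striatal markers, and no test was made on them.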

How the data were processed

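Strand-specific total RNA libraries depleted of ribosomal RNA were sequenced on an Illumina HiSeq instrument. The authors trimmed reads with Cutadapt, aligned them to RefSeq mRNAs with TopHat2 and deposited featureCounts counts per gene, not normalized, 1 file per library. mm10 is named in the submitters' processing notes. Versions, strand setting and the treatment of reads with several matches are not given in the sources used here. In 2 files, 26 gene names appeared as dates, and these rows were joined by position.

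The counts were fitted with edgeR 4.0.16 in R 4.3.3: filterByExpr (minimum count 10, minimum total 15), TMM scaling (factors 0.966 to 1.04), and a quasi-likelihood fit of group means over all 6 libraries (3 residual degrees of freedom, biological coefficient of variation 12.3%). Calls required an unadjusted p below 0.05 and a fold change of 1.2 or more, as in the study, and the Benjamini-Hochberg adjustment ran over 20409 genes. The step was tested on simulated data with the same spread for every gene and with larger changes than most of those reported here. That run does not measure power at the changes reported. The study describes its replicates as biological. The p-values rest on the spread between 2 libraries per group, which edgeR combines with the spread of other genes (9.21 to 10.2 total degrees of freedom). SEs given with edgeR are the absolute log2 fold change divided by the square root of its F statistic. SDs come from 2 libraries. Shares have 95% Wilson intervals. Symbols were matched to GENCODE M21 (53669 of 54429 to a single gene), and sequence was read from its transcripts and from RefSeq promoters. Alternatives used limma 3.58.1, DESeq2 1.42.0, other scalings and filters, a replicate block, a term for sex-linked expression, and fits without each library.

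The 5 genes, the gene lists and the tests were chosen with earlier results of these data known. Beside the 5 genes, each list is given by its counts and median with at most 6 examples of the highest CPM, and the 8 genes nearest in profile are named. The values of 1 listed erythroid gene are not reported here. Pair sums, single-library ratios, neighbouring genes, genes low in 1 library, Cdh5, Kdr, Tek, Ly6a, Alad, Ppox and the markers with few counts were chosen after their values were seen.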

Additional observations from a re-analysis of the deposited data

How the results depend on the processing

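The fall of Hbb-bs in Tau + vehicle kept its direction and its call under all 15 alternatives (log2 fold change -0.76 to -0.63). The number of the 5 genes called between Tau + vehicle and WT + vehicle, 2 in the report, was 5 with no filter and with the 2 groups alone, 1 with DESeq2's Wald test and with the sex term, 0 at an adjusted p under 0.05, and 1 to 5 without single libraries. It was 1 without the library labelled WT replicate 1 or without Tau + vehicle replicate 1. Between Tau + UNC0642 and Tau + vehicle, also 2 in the report, it was 1 with DESeq2's Wald test, 0 with the sex term and at an adjusted p under 0.05, and 0 to 3 without single libraries (1 without Tau + vehicle replicate 1, 0 without Tau + vehicle replicate 2 or Tau + UNC0642 replicate 2). Between Tau + UNC0642 and WT + vehicle, 0 in the report, it was 2 with no filter, 1 with limma-voom and 0 to 3 without single libraries.

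Same-numbered libraries did not vary together over all genes (correlations -0.034, -0.021 and -0.0033 over 20409 genes). With 2 libraries per group this cannot show whether same-numbered mice shared a litter or a day of handling. With the replicate block, 1 gene was called between Tau + UNC0642 and Tau + vehicle, where Hba-a1 lost its call (log2 fold change 0.9987, adjusted p of 0.671 with edgeR), and the summed log2 ratios were -0.66, 0.43 and -0.23. The block changed no other call among the 5 genes.

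Without single libraries, the log2 fold changes against Tau + vehicle reached from -0.11 to 1.78 for Hba-a1, -4.76 to 0.25 for Hba-a2, -0.36 to 0.48 for Hbb-bt and -0.015 to 0.34 for Alas2, and those against WT + vehicle from -0.72 to 1.18 for Hba-a1 and -0.53 to 0.035 for Hbb-bs. Directions turned in 8 cases, none of them between Tau + vehicle and WT + vehicle. Without Tau + UNC0642 replicate 2, the log2 fold changes against Tau + vehicle were -0.11 for Hba-a1, 0.25 for Hba-a2, -0.36 for Hbb-bt and -0.015 for Alas2, and that of Hba-a1 against WT + vehicle was -0.72. Alas2 against Tau + vehicle was -0.0040 without Tau + vehicle replicate 1 and -0.15 with the sex term. Hbb-bs against WT + vehicle was 0.035 without Tau + UNC0642 replicate 1. Without that library, edgeR's adjusted p against Tau + vehicle was 0.0276 for Hba-a1 (log2 fold change 1.78) and 0.0469 for Hba-a2 (-4.76), with the remaining Tau + UNC0642 library assumed to vary like the other groups. Against Tau + vehicle, the adjusted p ranged over the alternatives from 8.4e-05 to 0.980 for Hba-a1 and from 0.0469 to 1.00 for Hba-a2, and against WT + vehicle from 0.130 to 0.864 and from 0.00067 to 0.797.

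The other erythroid genes called were 0, 1 and 1 in the 3 comparisons. Without single libraries they were 0 to 2, 0 to 1 and 0 to 1. They were 0 between Tau + UNC0642 and Tau + vehicle with the sex term, 0 between Tau + UNC0642 and WT + vehicle with DESeq2's size factors, DESeq2's Wald test or limma-voom, and 0 in both at an adjusted p under 0.05. The cause of these changes was not tested, and the share of all genes called under each alternative is not given here. Counts of 2 to 128 per library limited the precision for Hba-a2.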

Other observations

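Beside Hba-a2, which had 2 counts, 5 genes were at least 8-fold lower in Tau + UNC0642 replicate 2 than in each other library, with 1 CPM or more there, and 3 of these were on chromosome 9. The 3 were Cyp11a1, which starts steroid hormone synthesis, and the long noncoding RNAs Gm40518 and Gm10635, each with 0 counts in that library against 1.01 to 2.23, 4.02 to 8.47 and 6.04 to 12.8 CPM in the others. 6820402A03Rik on chromosome 1 also had 0 counts, and Eps8l1 on chromosome 7 had 14 counts, 0.618 CPM, against 6.63 to 12.0 CPM. In the library labelled WT replicate 1, the pseudogene Gm13394 stood at 0.237 CPM against 69.2 to 91.0 CPM in the others, and Dnah6 at 1.30 CPM against 10.98 to 22.7 CPM. These genes were chosen after their values were seen, with no test.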
